A study of Mus musculus with 3 samples.

Results

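The caudal-type homeobox genes Cdx1, Cdx2 and Cdx4 were examined in maps of accessible chromatin, as 3 of the 21911 protein-coding genes of the mouse annotation. Their members of the peak lists were chosen by position alone: every ATAC-seq peak that overlapped the body of Cdx1, Cdx2 or Cdx4 or the 50 kb on either side of it (GENCODE M21, build mm10). The SOX2-ON list gave 36 of its 129843 peaks, the SOX2-OFF list 38 of 131520 and the CEpiLC list 44 of 130348. Merged over the lists, these peaks formed 55 of 219473 regions.

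ATAC-seq, which reads out open DNA by where a transposase can insert adapters, was run on mouse ES cells of the XY HM1 TetON line (strain 129) after 72 h of differentiation, with 50000 cells and 1 sample in each of 3 groups. All cells were kept for 2 days with 10 ng/ml bFGF and 5 µM LGK974, an inhibitor of WNT secretion, and were then given CHIR99021, an activator of WNT signalling, as well, which is the FLC medium that gives caudal epiblast-like cells (CEpiLCs). The CEpiLC group was wild type. SOX2-ON and SOX2-OFF were Sox2-/- cells in which a doxycycline (Dox)-inducible Sox2 transgene, placed at the Hprt locus and driven by an activator expressed from Rosa26, was the source of SOX2; these ES cells had been grown in 1 µg/ml Dox, which was maintained during differentiation in SOX2-ON and withdrawn in SOX2-OFF. The ES cells had been propagated on fibroblast feeders. Setting SOX2-ON against SOX2-OFF therefore asked how the Cdx loci differed with sustained induction of the transgene in a single engineered line, and the comparisons with CEpiLC set each state beside the wild type. With 1 sample per group there was no spread between samples to set a difference against, so no test was made and all values below describe these libraries.

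CDX proteins are the vertebrate relatives of Drosophila caudal. They are homeodomain transcription factors that bind AT-rich DNA, are switched on in the primitive streak and caudal epiblast under WNT and FGF signals, and activate the trunk Hox genes that pattern the posterior body. Cdx2 is also known from the trophectoderm and the intestine, and lies beside Pdx1 in the ParaHox cluster, whereas Cdx1 and Cdx4 lie apart on other chromosomes.

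The deposited −log10 p of a peak grows with sequencing depth, and the depth of these libraries is unknown because the lists hold no read counts. Strength was therefore compared between lists by list position, the rank by −log10 p as a percent of the peaks in the same list, where a small percent is a strong peak. Fold enrichment, width and edges are given beside it as the lists hold them, and also depend on depth. A shift between lists was called where the positions differed at least 2-fold. The engineered line carried an excess of peaks on chromosomes 6 and 8 and the wild type on chromosome 11, which together held from 26.3% to 33.1% of a list. None of the Cdx genes lies on these chromosomes. Peaks at starts of the defining genes of epiblast, caudal epiblast, naive, endoderm, neural and fibroblast cells were found in all 3 lists, so peak presence at starts gives no check of the labelled cell type. Their list positions did differ. All 4 naive markers stood higher in SOX2-ON than in CEpiLC (median ratio 0.746), and all 4 did so in SOX2-OFF too (median ratio 0.786). Of coding genes, 51.5% were lower placed in SOX2-ON than in CEpiLC, and 43.9% in SOX2-OFF than in CEpiLC. Marker positions were not adjusted for the excess on chromosomes 6, 8 and 11. Klf4 passed 2-fold between SOX2-ON and CEpiLC (5.76% against 12.7%), as did 12.4% of coding genes in that direction. Of the 3 endoderm markers, Gata6 stood more than 2-fold higher in SOX2-ON (6.29%) than in SOX2-OFF (13.6%) and CEpiLC (13.2%). In these directions 3.37% and 12.4% of coding genes passed 2-fold. The other endoderm markers were lower placed in SOX2-ON. No epiblast, neural or fibroblast marker reached 2-fold, and of the caudal markers only Cdx2 did. The part of these shifts in the Cdx values was not tested.

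The sequences on which the comparisons turn are given first. Cdx2 (ENSMUSG00000029646.3) lies on chromosome 5 at chr5:147300805-147307270, minus strand, and Cdx4 (ENSMUSG00000031326.2) on chromosome X at chrX:103321398-103330592, plus strand. Both have 3 exons. The 250 bases before the RefSeq start (GRCm38) are shown for Cdx2 (chr5:147307250-147307499, minus strand) and Cdx4 (chrX:103321148-103321397, plus strand), because both hold the octamer ATGCAAAT, the DNA word that the pluripotency factor OCT4 and its POU relatives are known to bind. Capitals mark the octamer.
Cdx2 upstream: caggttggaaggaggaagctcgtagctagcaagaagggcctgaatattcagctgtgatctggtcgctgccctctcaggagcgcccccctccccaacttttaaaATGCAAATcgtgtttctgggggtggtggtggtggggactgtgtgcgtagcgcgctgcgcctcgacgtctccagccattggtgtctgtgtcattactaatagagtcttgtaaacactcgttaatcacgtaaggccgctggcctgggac
Cdx4 upstream: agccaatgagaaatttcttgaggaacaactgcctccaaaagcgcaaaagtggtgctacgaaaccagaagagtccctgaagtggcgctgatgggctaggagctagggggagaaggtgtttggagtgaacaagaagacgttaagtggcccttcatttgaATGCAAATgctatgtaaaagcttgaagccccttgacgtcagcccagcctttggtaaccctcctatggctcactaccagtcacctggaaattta

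The octamer lay 147 to 140 bp before the RefSeq start of Cdx2, at chr5:147307389-147307396. At Cdx4 it lay 93 to 86 bp before the RefSeq start, at chrX:103321305-103321312. The GENCODE start of Cdx2, used for the start peaks, is chr5:147307270. It lies within the printed Cdx2 bases and nearer to the octamer. In each of the 3 lists 1 peak covered the octamer at either gene. Searched on both strands in windows of 250 bases before to 50 bases after each RefSeq start, ATGCAAAT was found in 1.74% of 32851 promoters, and in the upstream 250 bases in 1.6%. None of the other 6 motif families searched was found in the Cdx2 or Cdx4 promoter window. SOX letters were read as ACAATG, with ACAAAG as the other form, and were in 28.6% of promoters. TCF/LEF letters, the word through which WNT signalling reaches DNA, were read as ATCAAAG, with TTCAAAG as the other form, and were in 8.65%. CDX letters were read as CATAAA, with CAATAAA as the other form, and were in 15.6%. T-box letters (TCACACC) were in 3.98%, FOXH1 letters (AATCCACA) in 0.855% and GATA letters (AGATAA) in 11.2%. The SOX and TCF/LEF words can share bases. A match is a description of letters and does not show binding.

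Intron 1 of Cdx2 (3118 bp) is shown because the study built its Cdx2 reporter from it and because the edges of its peak differed between lists. The stretch chr5:147304120-147304388 (plus strand, 269 bp) lay within a peak in SOX2-ON and outside all peaks in SOX2-OFF and CEpiLC. Capitals mark, in order, a SOX match on the minus strand (base 115), a SOX match on the plus strand (base 223) and a TCF/LEF match (base 246).
Cdx2 intron stretch: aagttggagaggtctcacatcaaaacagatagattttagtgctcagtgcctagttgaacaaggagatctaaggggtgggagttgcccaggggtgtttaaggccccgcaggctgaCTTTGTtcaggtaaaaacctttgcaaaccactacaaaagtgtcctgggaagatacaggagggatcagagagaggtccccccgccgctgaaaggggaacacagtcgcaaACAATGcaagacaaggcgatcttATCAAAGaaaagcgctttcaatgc

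In windows of the same length at the centres of SOX2-ON peaks, 33.8% held at least 1 SOX match, 8.69% held at least 2 and 9.66% held a TCF/LEF match. The printed stretch is the edge of a peak and not its centre, and no share over such edges was taken. The study's reporter fragment is longer than the first 399 bases, which are those used here, and the Sox2del changes in the rest of it were not analysed here. With the predicted SOX2 motifs of the whole fragment scrambled, the study reported substantially lower reporter activity in CEpiLCs. In the wild-type version these 399 bases matched chr5:147304121-147304519 with 0 mismatches. All 399 lay within the SOX2-ON peak, 131 within the SOX2-OFF peak and 96 within the CEpiLC peak. In its Sox2del version, in which predicted SOX2 motifs were scrambled, 6 of these bases differed in 2 clusters. Counted from 1 at the 5′ end of the fragment, the changes were T116A, T117A and G118C in cluster 1 and A222T, C223G and A225T in cluster 2. Each of these clusters fell on 1 of the SOX matches above and removed it, and both lay in DNA that only the SOX2-ON list covered. This says nothing of the other changed motifs, since the 399 bases end inside peaks of all 3 lists. The wild-type and Sox2del windows are set side by side to show this, at chr5:147304225-147304249 for cluster 1 and chr5:147304331-147304356 for cluster 2, with the span of the changes in capitals.
Cluster 1 wild type: gcaggctgactTTGttcaggtaaaa
Cluster 1 Sox2del: gcaggctgactAACttcaggtaaaa
Cluster 2 wild type: cacagtcgcaaACAAtgcaagacaag
Cluster 2 Sox2del: cacagtcgcaaTGATtgcaagacaag

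A peak lay over the start of Cdx1, Cdx2 and Cdx4 in every list. Start peaks, those within 1 kb of an annotated start, were found in all 3 lists for 71.8% of coding genes, so their presence was the common state and not particular to the family. The position of the start peak in its list was lowest in SOX2-ON at all 3 Cdx genes. The same held for 42% of the 15729 coding genes with a start peak in all 3 lists. By pairs of lists, 56.9% of coding genes were lower placed in SOX2-ON than in SOX2-OFF by any amount, and 51.5% than in CEpiLC.

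At Cdx1 (ENSMUSG00000024619.8, chr18:61018862-61036199, minus strand), the start peak stood at 17.2% of the list in SOX2-ON (rank 22333), 10.1% in SOX2-OFF (rank 13245) and 8.91% in CEpiLC (rank 11620). The SOX2-ON value was the weakest, and the other two lay close together. The fold enrichment over local background spanned a narrow range and did not follow the ranks, at 2.24, 2.31 and 2.20 in that order. The peak kept nearly the same edges in the 3 lists, with widths of 2232, 2220 and 2267 bp. It covered exon 1 and more than 1 kb of intron 1. It was wider than 94.2%, 89.7% and 93.2% of the start peaks of its own list.

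At Cdx2, the start peak stood at 15.5% in SOX2-ON (rank 20090), 10.4% in SOX2-OFF (rank 13713) and 7.67% in CEpiLC (rank 10000). By list position SOX2-ON was again the weakest and CEpiLC the strongest. Fold enrichment did not follow this order, at 2.21, 2.10 and 2.20 respectively. The widths differed more than at Cdx1, at 1237 bp in SOX2-ON, 3171 bp in SOX2-OFF and 1026 bp in CEpiLC. The SOX2-OFF peak was so wide because it ran without a break from the start into intron 1, and its rank and fold enrichment therefore average over the start and the intronic element.

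At Cdx4, the start peak stood at 44.7% in SOX2-ON (rank 57998), 18.8% in SOX2-OFF (rank 24666) and 25.1% in CEpiLC (rank 32713). It was the weakest of the 3 Cdx start peaks in each list. Fold enrichment followed the ranks, being 1.78, 2.37 and 2.01 respectively. The peak was also widest in SOX2-OFF, with widths of 842, 1186 and 824 bp. Here SOX2-OFF rather than CEpiLC held the strongest peak.

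**Figure D1:**
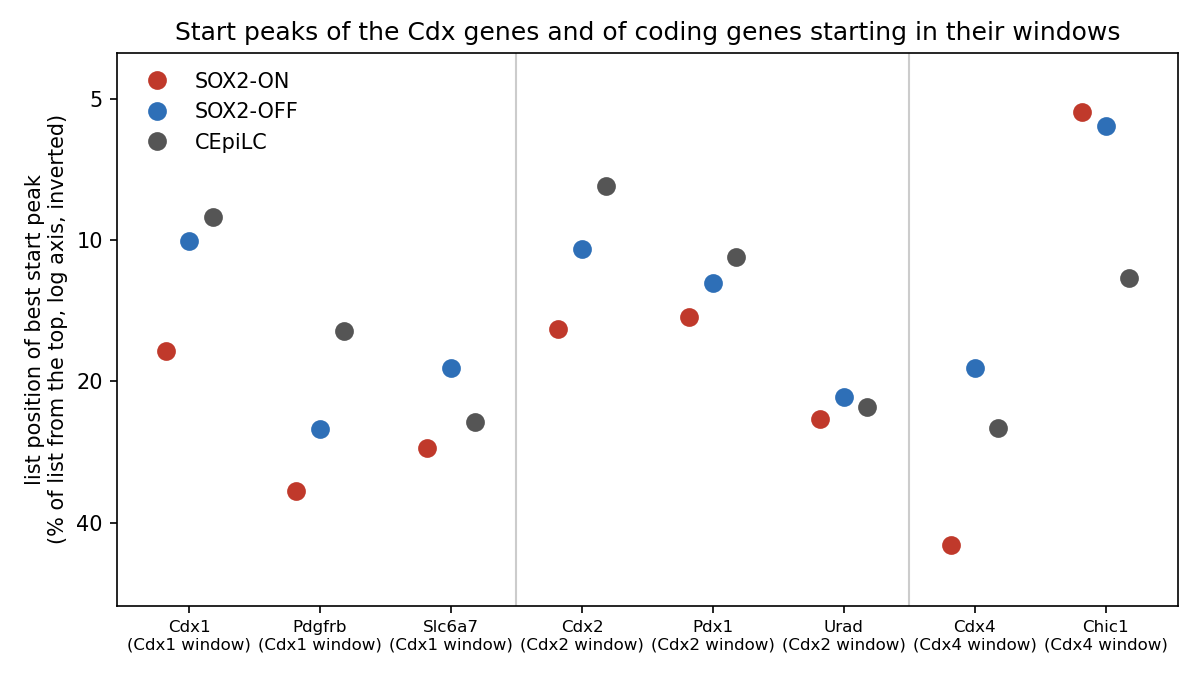
List position of the best start peak (percent of the list from the top, log axis, strong peaks uppermost) for Cdx1, Cdx2 and Cdx4 and for the other coding genes that start within their windows, with 1 point per sample and no replicates. SOX2-ON is lowest at all 3 Cdx genes and at 4 of the 5 neighbours, the exception being Chic1.

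Between SOX2-ON and SOX2-OFF, list positions differed 1.71-fold at Cdx1, 1.48-fold at Cdx2 and 2.38-fold at Cdx4, each lower placed in SOX2-ON. Only the Cdx4 shift reached 2-fold, as did 5.04% of 16002 coding genes in that direction and 3.37% in the other. Over those genes the median ratio was 1.06, and 90.5%, 83.6% and 97.3% of them had a lower ratio than Cdx1, Cdx2 and Cdx4. Between SOX2-ON and CEpiLC, the ratios were 1.93 at Cdx1, 2.02 at Cdx2 and 1.78 at Cdx4. Only Cdx2 was called, as were 12.2% of 15893 coding genes in that direction and 12.4% in the other. Between SOX2-OFF and CEpiLC, the ratios were 1.13, 1.36 and 0.747, and none of the 3 was called, against 6.36% of 16044 coding genes lower placed in SOX2-OFF and 7.79% lower placed in CEpiLC. These comparisons share samples and are not independent of each other.

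The 2-fold calls depended on how peaks were ranked. The Cdx4 ratio of SOX2-ON to SOX2-OFF was 1.65 among peaks of chromosome X and 1.31 among start peaks. It stayed above 2-fold by fold enrichment (2.81), without chromosomes 6, 8 and 11 (2.34) and with a start distance of 2.5 kb (2.38). The Cdx2 ratio of SOX2-ON to CEpiLC was 1.59 when ranked by fold enrichment, 1.57 among start peaks and 1.53 when the start distance was set to 2.5 kb. It stayed above 2-fold without chromosomes 6, 8 and 11 (2.22) and among peaks of its own chromosome (2.12). That SOX2-ON was lowest placed at Cdx1, Cdx2 and Cdx4 held under each of the 5 other rankings tried.

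**Figure D2:**
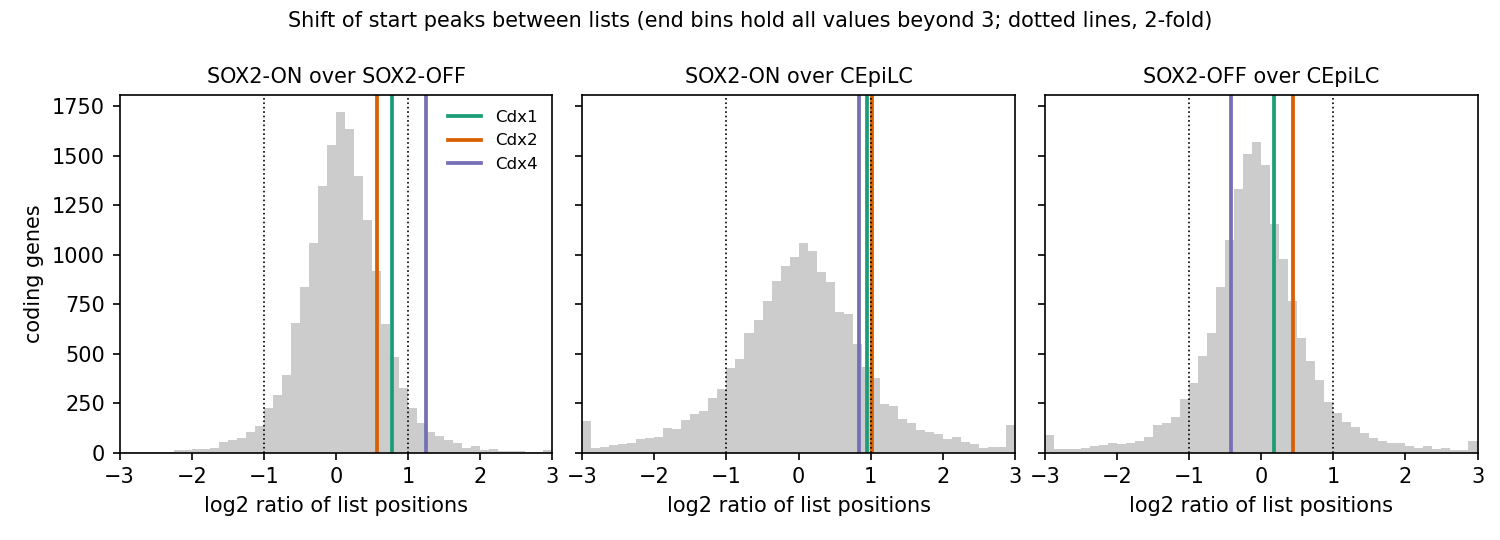
Histograms of the log2 ratio of list positions of the best start peak over coding genes, for SOX2-ON over SOX2-OFF, SOX2-ON over CEpiLC and SOX2-OFF over CEpiLC, with coloured lines at the Cdx genes and dotted lines at 2-fold. The Cdx lines lie right of the bulk in the panels with SOX2-ON, within the spread of the other genes, and on either side of the middle in the last panel.

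The other coding genes that start inside the Cdx windows showed how far this ordering was shared locally. Pdgfrb, a growth factor receptor that starts 8951 bp from Cdx1, stood at 34.2%, 25.2% and 15.6% in SOX2-ON, SOX2-OFF and CEpiLC. Slc6a7, a proline transporter beyond the other end of Cdx1, stood at 27.8%, 18.7% and 24.4%. In the Cdx2 window, the pancreatic homeobox gene Pdx1 stood at 14.6%, 12.3% and 10.9%, and Urad, an enzyme of urate breakdown, at 24.0%, 21.6% and 22.7%. All 4 were lowest placed in SOX2-ON, as the Cdx genes were. Chic1, which starts 35078 bp from Cdx4, went the other way, at 5.35%, 5.73% and 12.0%, so the start peaks of the 2 coding genes of the Cdx4 window differed in their order across the samples.

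The Cdx1 window (117.3 kb) held 16 SOX2-ON peaks, 19 SOX2-OFF peaks and 19 CEpiLC peaks. This was 13.6, 16.2 and 16.2 peaks per 100 kb, above the medians over all coding genes of 8.01, 8.40 and 9.06. The peaks merged into 25 regions, of which 11 were covered in all 3 lists. Outside the start, the strongest of these lay not in Cdx1 but in its neighbours Camk2a, Pdgfrb and Slc6a7, and in SOX2-ON the Camk2a peak (15.1%) stood above the Cdx1 start. Within Cdx1, a region at chr18:61019542-61021070 was covered in SOX2-ON and SOX2-OFF but not in CEpiLC. The SOX2-ON peak (1529 bp) ran from exon 3 over exon 2 into intron 1 and was weak (88.2% of the list), and the SOX2-OFF peak (563 bp) covered the edge of exon 2 and intron 1 and was stronger (41.4%). A further intronic peak at chr18:61027490-61028589 was listed in SOX2-OFF only, near the end of the list at 94.3%. Upstream, an intergenic peak at chr18:61039601-61040223 was present in all 3 lists, at 38.4% (SOX2-ON), 43.5% (SOX2-OFF) and 55.9% (CEpiLC). This upstream peak was strongest in SOX2-ON, the reverse of the order at the Cdx1 start.

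Around Cdx2 (106.5 kb), SOX2-ON listed 13 peaks, SOX2-OFF 15 and CEpiLC 21. Of coding genes, 70.9%, 79.0% and 94.4% had fewer peaks per length in the same list. Among the strongest 20000 peaks of each list, the Cdx2 window held 5, 5 and 6 in that order. The peaks merged into 22 regions, 11 of them in all 3 lists and 6 in CEpiLC only. Of the peaks listed in CEpiLC only, the nearest to the gene, at chr5:147309244-147309585 upstream of the start, stood at 33.5%, and the other 5 stood between 87.0% and 97.2% of the list.

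In each list the strongest peak of the Cdx2 window lay not at the start but just beyond the 3′ end of the gene, at chr5:147299076-147300215, in DNA annotated as intergenic. This downstream peak stood at 9.75% in SOX2-ON (rank 12665), 7.51% in SOX2-OFF (rank 9873) and 7.52% in CEpiLC (rank 9805). The margin over the start peak was small in CEpiLC, where that peak stood at 7.67%. The 3 lists gave it nearly the same edges, with widths of 1041, 1140 and 1064 bp. Further out, a broad intergenic peak at chr5:147292200-147294479 was found in all 3 lists, at 14.7%, 10.6% and 10.8%. Both were somewhat lower placed in SOX2-ON than in the other lists, by less than 2-fold.

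Within intron 1 of Cdx2, SOX2-ON had a peak of its own at chr5:147304120-147305371, at 11.7% of the list (rank 15231) with a fold enrichment of 2.48. It stood above the Cdx2 start peak of the same list. CEpiLC had an intronic peak at chr5:147304424-147305283, at 10.7% (rank 14004), below its start peak. In SOX2-OFF the element was part of the joined peak that reached the start. The gap between intronic and start peaks was 896 bp in SOX2-ON and 1304 bp in CEpiLC. On the side towards exon 2, the SOX2-ON peak reached 269 bp further than the SOX2-OFF peak and 304 bp further than the CEpiLC peak, ending 793 bp from exon 2. The added stretch is the 269-base sequence printed above with its SOX and TCF/LEF letters.

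Such an added edge was not rare. Of the regions covered in all 3 lists, 13.2% had a SOX2-ON peak that reached at least 200 bp past both other lists on at least 1 side, 21.4% a SOX2-OFF peak and 13.7% a CEpiLC peak. Of the 24 Cdx regions in all 3 lists, the counts were 4, 3 and 3. The 200-bp limit was chosen after the Cdx2 edge had been seen. Broad peak calling joins neighbouring sites and its edges move with depth, and the part of this in the Cdx2 edge was not tested.

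**Figure D3:**
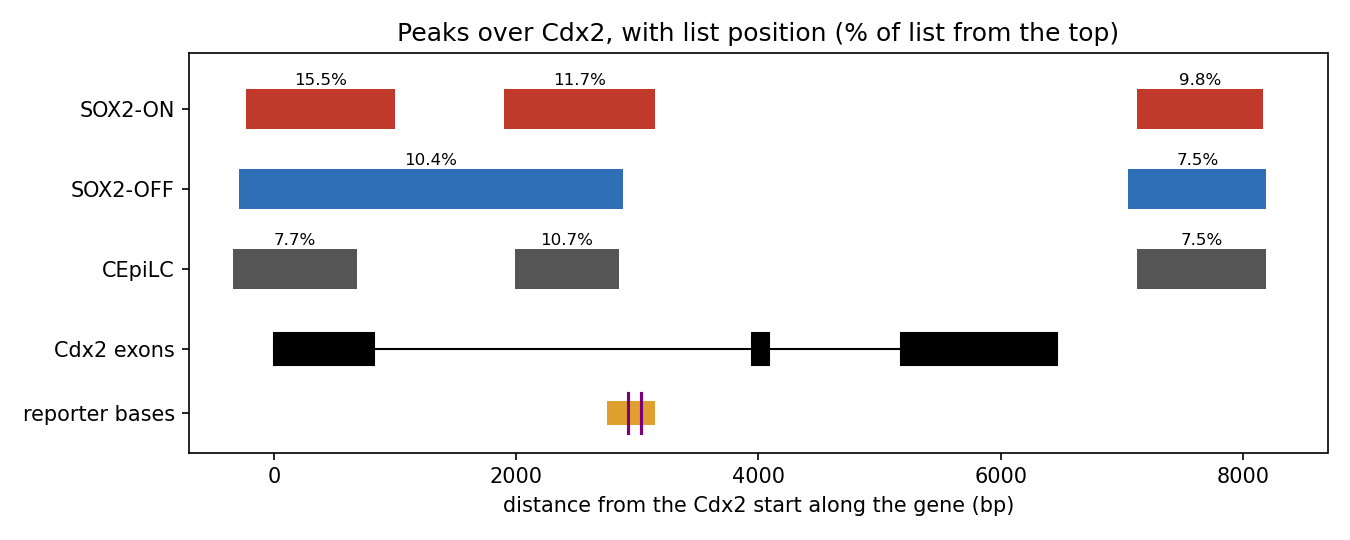
Peaks over Cdx2 in each list, drawn to scale by distance from the start along the gene (bp) and labelled with their list position, above the exons and the 399 reporter bases, with vertical marks at the 2 clusters of these bases that were changed in Sox2del (the rest of the fragment is not drawn). The SOX2-ON intronic peak covers both marks, and the SOX2-OFF and CEpiLC peaks end before them.

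The Cdx4 window (109.2 kb) held few peaks, of which SOX2-ON listed 7 and SOX2-OFF and CEpiLC 4 each. Only 41.1%, 24.3% and 24.8% of coding genes had fewer per length. Chromosome X was sparse as a whole, with medians of 1.55, 1.02 and 0.919 peaks per 100 kb over the windows of its 948 coding genes, against 6.41, 3.66 and 3.66 at Cdx4. The line is XY and has a single X. The lists differed in the same direction over the whole chromosome, from 1741 SOX2-ON peaks to 1426 SOX2-OFF and 1042 CEpiLC peaks.

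Of the 8 merged regions around Cdx4, only the Cdx4 and Chic1 starts were covered in all 3 lists. SOX2-ON alone had 3 of the other regions. The first, at chrX:103287049-103287572 within transcripts of 4930519F16Rik and Gm19200, stood at 18.0% of the list (rank 23404). The second, at chrX:103311832-103312460, upstream of Cdx4 within 1 kb of an annotated 4930519F16Rik start, stood at 23.9% (rank 31051). The third, at chrX:103346877-103347496 between Cdx4 and Chic1, stood at 18.2% (rank 23683). All 3 stood above the Cdx4 start peak of the same list, which stood at 75.5% among its X peaks. The median position over all 1741 SOX2-ON peaks of chromosome X was 26.0%. Of all merged regions whose best position was within the first 20% of a list, 5.05% were listed in SOX2-ON only, and of those from 20% to 40%, 12.9%. These shares are over all chromosomes and were not taken for chromosome X, where SOX2-ON listed the most peaks. SOX letters lay in the central 200 bp of the first and the third but not of the second, against 27.3% of all SOX2-ON peaks.

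The Cdx4 gene itself held 1 intronic peak, in intron 1 at chrX:103326536-103327073. It was at 25.1% in SOX2-ON (rank 32534, 532 bp) and at 57.6% in CEpiLC (rank 75094, 245 bp), and it was not listed in SOX2-OFF. Its order was thus the reverse of that at the Cdx4 start, where SOX2-OFF was strongest. The bases of the CEpiLC peak, chrX:103326536-103326780 (plus strand), are printed because they are nearly all common to both lists that hold the element. Capitals mark a GATA match (base 10) and a SOX match (base 186), both on the minus strand.
Cdx4 intron element: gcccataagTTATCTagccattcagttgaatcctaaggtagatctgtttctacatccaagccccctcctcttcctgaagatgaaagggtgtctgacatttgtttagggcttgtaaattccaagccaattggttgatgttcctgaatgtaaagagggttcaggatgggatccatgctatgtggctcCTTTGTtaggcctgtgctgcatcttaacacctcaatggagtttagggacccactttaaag

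Of windows of this length at the centres of CEpiLC peaks, 26.4% held a SOX match and 9.28% a GATA match. The intronic elements of Cdx2 and Cdx4 both had a peak in SOX2-ON and CEpiLC. They differed in SOX2-OFF, where the Cdx2 element was within a strong peak and the Cdx4 element was not listed. The SOX letters printed for the Cdx2 intron lay outside its CEpiLC peak. A peak missing from a list was not called there, which does not show closed chromatin.

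**Figure D4:**
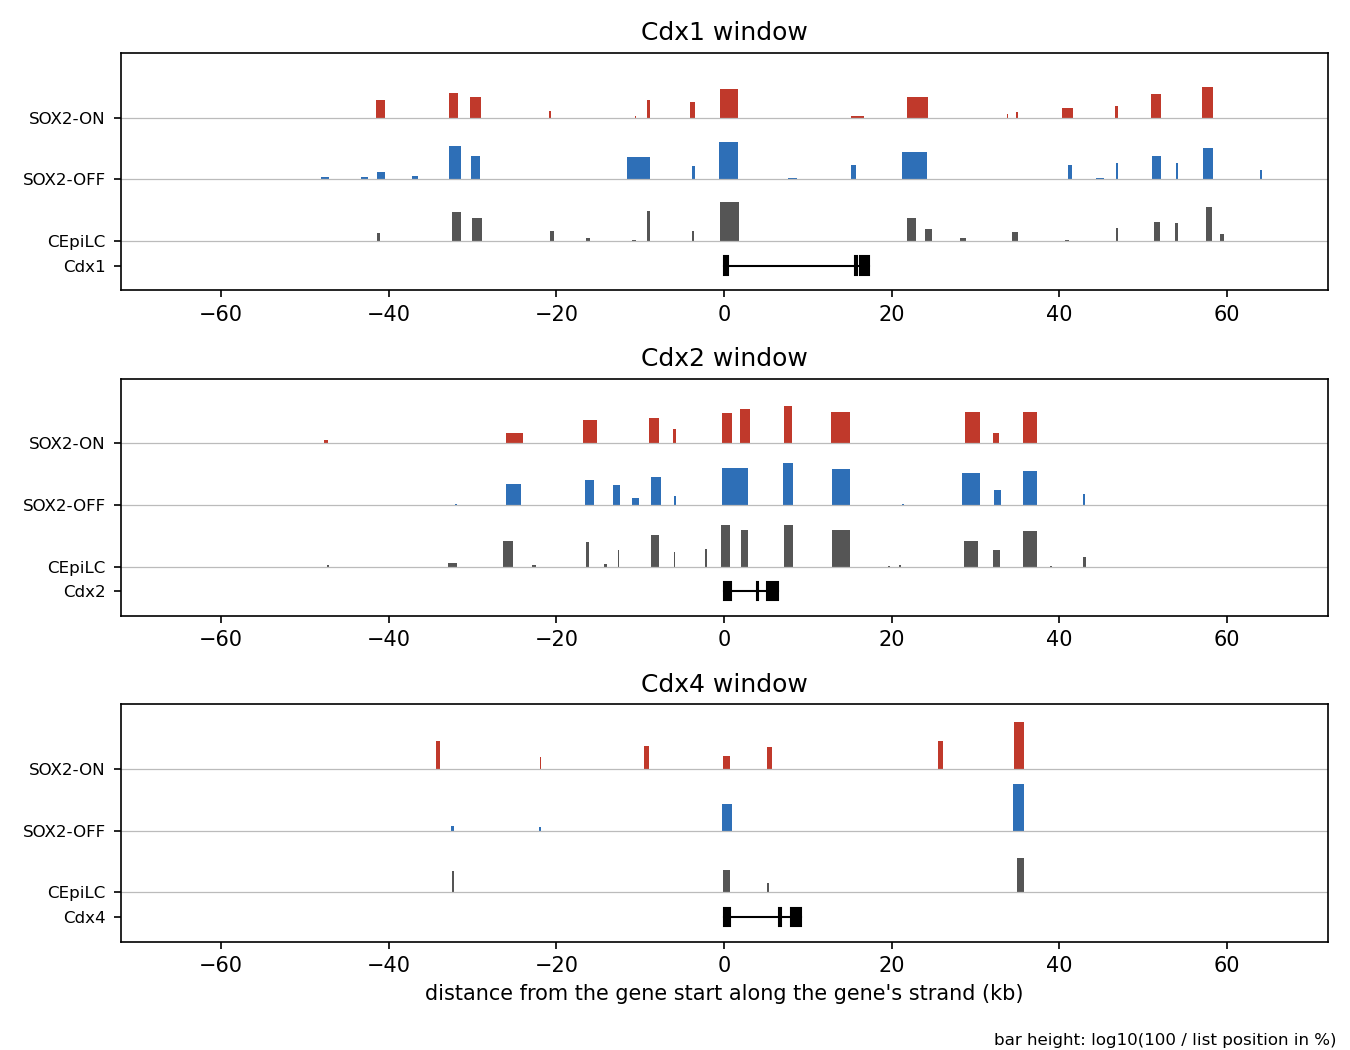
Peaks in the windows of Cdx1, Cdx2 and Cdx4 by distance from the gene start along the gene (kb), with 1 track per sample, exons in black and bar height rising with the strength of the peak in its list as log10 of 100 over the list position. Cdx1 and Cdx2 hold many peaks at the same places in the 3 tracks, while Cdx4 holds 7, 4 and 4 peaks and its SOX2-ON track has peaks that the others lack.

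Over the 55 regions of the family, 24 (43.6%) were covered in all 3 lists, against 27% of all merged regions. Regions that rank high in a list are usually found in the others, and within bands of strength the Cdx regions were close to the rest. Of the 15 Cdx regions whose best position was within 20% of the top, 13 were in all 3 lists, against 85.2% of all such regions. From 20% to 40% the count was 8 of 14, against 45%, from 40% to 60% 2 of 8, against 16.4%, from 60% to 80% 1 of 5, against 4.99%, and beyond 80% it was 0 of 13, against 0.531%.

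By list, 4 Cdx regions were in SOX2-ON only, 8 in SOX2-OFF only and 9 in CEpiLC only, against 16.9%, 15.1% and 20.3% of all merged regions. In exactly 2 lists, 2 Cdx regions were in SOX2-ON and SOX2-OFF, 4 in SOX2-OFF and CEpiLC and 4 in SOX2-ON and CEpiLC, against 10.5%, 6.92% and 3.28%. Of the regions in SOX2-ON only, 3 of 4 lay in the Cdx4 window. Of those in SOX2-OFF only, 6 of 8 lay in the Cdx1 window, and of those in CEpiLC only, 6 of 9 in the Cdx2 window. These counts are small, and the Cdx1, Cdx2 and Cdx4 windows held 25, 22 and 8 of the 55 regions. Apart from a region at 55.0%, the SOX2-OFF-only regions of the Cdx1 window stood between 81.8% and 94.3% of the list.

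Over the 26 Cdx regions in both SOX2-ON and SOX2-OFF, 21 were lower placed in SOX2-ON, against 59.8% of all 82326 such regions, and the median ratio was 1.18 against 1.1. A 2-fold shift was reached by 2 of them in that direction (7.05% of all regions), namely the Cdx4 start and the Cdx1 region at exon 2. In the other direction it was reached by 1 (5.84% of all regions), a peak in Pdgfrb. By gene, the region was lower placed in SOX2-ON in 10 of 12 cases at Cdx1, 10 of 11 at Cdx2 and 1 of 3 at Cdx4. Over the 28 regions in both SOX2-ON and CEpiLC, 20 were lower placed in SOX2-ON, against 58.1% of all such regions. Here 2 reached 2-fold (13% of all regions), at the Pdgfrb start and in Flt3. The region that holds the Cdx2 start was not among them, with a ratio of 1.53, because it also holds the stronger intronic peak of SOX2-ON. There were 2 in the other direction (9.37%), the Cdx4 intron peak and the Chic1 start. Between SOX2-OFF and CEpiLC, 13 of 28 were lower placed in SOX2-OFF, against 48.8%, and the median ratios were 0.993 for the Cdx regions and 0.988 for all. A 2-fold shift was reached by 1 (6.09% of all regions), a peak in 4930519F16Rik, and in the other direction by 2 (6.87%), in Slc6a7 and at the Chic1 start.

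SOX letters in the central 200 bp of the Cdx peaks were near or below their share elsewhere. They were found in 6 of 36 SOX2-ON peaks, 9 of 38 SOX2-OFF peaks and 7 of 44 CEpiLC peaks, where all peaks of these lists gave 27.3%, 23.4% and 22.3%. CDX letters were found in 2, 1 and 2 Cdx peaks, against 10.4%, 11% and 10.1% of all peaks. TCF/LEF letters were found in 2, 3 and 2, against 7.33%, 7.56% and 7.02%. T-box letters were found in 1, 0 and 4, against 3.11%, 3.45% and 3.49%. The counts for GATA were 3, 4 and 4 (9.97%, 9.1% and 7.61% of all peaks), for OCT 1, 1 and 0 (1.45%, 1.35% and 1.09%) and for FOXH1 0, 0 and 1 (0.705%, 0.776% and 0.699%). The counts are small, and the central bases of a broad peak need not be its summit.

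Related genes were read by the same measure. All 3 ParaHox genes Gsx1, Gsx2 and Pdx1 had a start peak in each list, and none was called in any comparison. All 12 genes of a caudal epiblast and WNT-responsive list had start peaks in each list. None of them was called between SOX2-ON and SOX2-OFF, and 9 of 12 were lower placed in SOX2-ON, against 56.9% of coding genes. Wnt8a, a WNT ligand of the early streak, was called between SOX2-ON (10.2%) and CEpiLC (4.41%), in the same direction as Cdx2 and 12.2% of coding genes. Fgf17, an FGF ligand, was called between SOX2-OFF (38.2%) and CEpiLC (82.3%), lower placed in CEpiLC, as were 7.79% of coding genes. Of 8 trunk Hox genes, which are known targets of CDX proteins, all had start peaks in each list and none was called. Lower placement in SOX2-ON than in SOX2-OFF was seen at 2 of 8, against 56.9% of coding genes.

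The genes whose start peaks were most like those of the Cdx genes were found by the Euclidean distance of log2 list positions over the 3 lists, among 15729 coding genes. Nearest to Cdx1 were Kcnc2 (distance 0.0646), Luzp2 (0.0689) and Echdc2 (0.0778). Nearest to Cdx2 were F5 (0.0802), and Ccdc137 and Oxld1, which stood at the same 3 positions (0.107). Nearest to Cdx4 were Tmprss13 (0.175), Samd11 (0.183) and Gm10436 (0.197). None of the Cdx genes was among the nearest of another. The likeness rests on 3 values per gene and says nothing of shared control.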

How the data were processed

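ATAC-seq was analysed from 1 deposited list of broad peaks per sample. Per the study's methods, reads were trimmed with Trim Galore, aligned with BWA to mm10, filtered and called with MACS2 in the nf-core/atacseq pipeline. For each peak the authors deposited a fold enrichment (the ratio of pileup to local background), −log10 p and −log10 q, and a score equal to 10 times −log10 q within 1, used only for that check. All lists end near a −log10 q of 1. No control library is described, and the treatment of cut positions is not given in the sources used here, so peak edges are approximate. No depth, counting interval or floor could be given because the lists hold no read counts.

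Genes, exons and starts came from GENCODE M21 on GRCm38, the build of mm10. Overlapping or adjoining peaks of the 3 lists were merged into regions. Peaks were ranked by −log10 p within a list, and list positions were compared between samples, with a 2-fold difference called. Motif words, read on either strand, were counted in the middle 200 bp of each peak. Promoter sequences came from RefSeq (GRCm38), with Cdx2 and Cdx4 matched and Cdx1 without an entry, and the reporter bases from the study's fragment sequence. Named genes were the 3 Cdx genes, all coding genes starting in their windows, the called members of 3 lists (ParaHox, caudal epiblast and WNT-responsive, trunk Hox) and the 3 genes of nearest list positions. Gsx1 and Gsx2 were named as members of the ParaHox list, outside that rule, and Klf4 and Gata6 after their values were seen. The neighbouring genes that contain window peaks (Camk2a, Flt3, 4930519F16Rik and Gm19200) were named from the annotation. The members and lists were chosen with earlier results of these data known. The overlap and ranking steps were tested on simulated lists. Python 3.11.15 with pandas 2.3.3, numpy 2.4.6 and matplotlib 3.10.9 was used.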

Additional observations from a re-analysis of the deposited data

How the results depend on the processing

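No paired analysis was possible because there was 1 sample in each group, and for the same reason no replicate could be left out. Values below are in the order SOX2-ON, SOX2-OFF and CEpiLC. With 10 kb on either side of the genes, the windows held 5, 6 and 5 peaks at Cdx1, 6, 5 and 7 at Cdx2 and 3, 1 and 2 at Cdx4. With 100 kb, they held 25, 32 and 33 at Cdx1, 20 and 23 in SOX2-ON and SOX2-OFF at Cdx2, and 7 in SOX2-OFF at Cdx4, the other 3 counts staying within 1.5 times. With a −log10 q of at least 2, the counts in CEpiLC fell to 11 at Cdx1 and 13 at Cdx2, and that in SOX2-OFF to 2 at Cdx4. With at least 5, the counts were 8, 7 and 4 at Cdx1, 8, 9 and 8 at Cdx2, and 2 in SOX2-OFF and 1 in CEpiLC at Cdx4, and 4, 6 and 1 regions of Cdx1, Cdx2 and Cdx4 were in all 3 lists. Those region counts stayed within 1.5 times with −log10 q of at least 2 and with 10% or 50% of a peak covered.

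Start peak positions moved with the ranking, while SOX2-ON stayed lowest placed at each Cdx gene under all 5 alternatives. By fold enrichment they were 23.8%, 15.8% and 15.2% at Cdx1, 24.3%, 20.1% and 15.3% at Cdx2, and 41.8%, 14.9% and 20.9% at Cdx4. Without chromosomes 6, 8 and 11 they were 20.4%, 12.0% and 9.64%, then 18.4%, 12.4% and 8.28%, then 52.1%, 22.3% and 27.2%. Among peaks of the same chromosome they were 19.8%, 10.8% and 9.31%, then 16.8%, 11.5% and 7.92%, then 75.5%, 45.7% and 61.2%. Among start peaks they were 51.6%, 40.2% and 35.7%, then 49.6%, 41.2% and 31.6%, then 71.3%, 54.3% and 59.9%. With starts taken to 2.5 kb, the Cdx2 value in SOX2-ON became 11.7%, that of the intronic peak. The Cdx1 ratio of SOX2-ON to CEpiLC passed 2-fold without chromosomes 6, 8 and 11 (2.11) and on its own chromosome (2.12).

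Over whole peaks in place of the central 200 bp, SOX letters were in 21, 24 and 23 Cdx peaks, TCF/LEF in 13, 16 and 11, CDX in 10, 12 and 11, T-box in 6, 9 and 8, OCT in 4, 5 and 4, and GATA in 17, 17 and 11. No whole-peak share over all peaks is given here. The shares given for the central 200 bp do not apply to these counts, because a longer stretch holds more matches by its length.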
